A study of Mus musculus with 186 samples.

Results

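The 4 genes for the regulatory subunits of protein kinase A (PKA), Prkar1a, Prkar1b, Prkar2a and Prkar2b, were followed through 6 brain regions of Akap11 mutant mice. They are the complete set of PKA regulatory subunit genes in mouse and were taken by symbol from a table of 28338 genes, in which all 4 were present. Bulk RNA sequencing covered striatum (STR), thalamus (TH), hippocampus (HP), substantia nigra (SN), and the prefrontal (PFC) and somatosensory (SSC) cortex, with 96 libraries at 4 weeks of age and 90 at 12 weeks. The mice were wild type (WT), Akap11 +/- (HET) or Akap11 -/- (KO), with 5 or 6 libraries in each of the 36 groups of region, age and genotype. The labels give no strain or sex and do not say how the Akap11 allele was made. They also do not say that libraries of a group came from separate animals, so p-values measure the spread between these libraries, which may in part be technical.

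PKA is held inactive as a complex of paired regulatory and catalytic subunits. Binding of cyclic AMP (cAMP) to the regulatory subunits frees the catalytic subunits, which then phosphorylate their targets. Type I regulatory subunits (encoded by Prkar1a and Prkar1b) are largely cytosolic, and type II subunits (Prkar2a and Prkar2b) are largely anchored to membranes and the cytoskeleton by A-kinase anchoring proteins. AKAP11 is such an anchoring protein. It binds type I regulatory subunits and GSK3, and it is known as an autophagy receptor that delivers the type I subunit RIα, the product of Prkar1a, for degradation. The RNA measured here does not report on protein levels.

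In the GENCODE M21 annotation of GRCm38, Prkar1a lies at chr11:109649405-109669656 on the plus strand and Prkar1b at chr5:139017306-139150001 on the minus strand. Prkar2a lies at chr9:108689314-108750436 on the plus strand and Prkar2b at chr12:31958476-32061296 on the minus strand. The span of Prkar1b, introns included, shares 2426 bases with that of the transcript Gm15672 on the same strand. Whether their exons overlap, and so whether they could share reads, was not examined. Prkar2a overlaps the small nuclear RNA gene Gm24259 on the opposite strand. The longest annotated coding sequences were 1143 bases in both type I genes, 1206 bases in Prkar2a and 1248 bases in Prkar2b.

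The start-site windows of the type I gene that differed most often between genotypes and of the type II gene that differed most between regions follow, each from 250 bases before to 50 after a RefSeq start site (GRCm38.p6), 5′ to 3′ on the gene's strand. Capitals mark the cAMP response element TGACGTCA, to which the PKA substrate CREB binds, or its core TGACG, searched on both strands (CGTCA on the other). The Prkar1a window is chr11:109650699-109650998 (plus strand) and the Prkar2b window is chr12:32061228-32061527 (minus strand).
Prkar1a: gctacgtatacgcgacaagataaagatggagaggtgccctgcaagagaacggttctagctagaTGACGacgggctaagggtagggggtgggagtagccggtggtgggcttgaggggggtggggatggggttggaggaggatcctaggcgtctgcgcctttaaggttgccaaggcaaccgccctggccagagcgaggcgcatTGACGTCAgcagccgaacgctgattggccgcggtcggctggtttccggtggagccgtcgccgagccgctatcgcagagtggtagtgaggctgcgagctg
Prkar2b: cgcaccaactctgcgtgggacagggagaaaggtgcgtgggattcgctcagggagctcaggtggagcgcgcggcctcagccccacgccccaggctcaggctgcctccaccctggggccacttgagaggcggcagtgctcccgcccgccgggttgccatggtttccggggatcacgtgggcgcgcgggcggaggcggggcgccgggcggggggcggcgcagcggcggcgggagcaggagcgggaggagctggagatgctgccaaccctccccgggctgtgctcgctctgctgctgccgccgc
The Prkar1a window held 1 full element and 3 core matches, of which 2 lie within the palindromic full element. The Prkar2b window and a Prkar1b window held 0 core matches, and a Prkar2a window held 1. Other windows of the same genes differed, so these counts belong to the chosen windows. A Prkar1a window at chr11:109649113-109649412, which also holds an annotated principal start, held 1 core match and 0 full elements. A Prkar1b window at chr5:139149952-139150251 held 1 core match. Of 32851 start-site windows of this length, 1.79% held the full element and 20.8% the core. A match describes these letters only.

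Library totals ranged from 20.8 to 73.3 M counts (M, mega), and a member's count in a library from 268 to 102835. Akap11, the targeted gene, fell to between 5.08% and 7.98% of its WT mean (counts per M, CPM) in all 12 KO comparisons. Its HET means were 50.2% to 61.8% of WT, and it was called in 10 of 12 HET comparisons (edgeR). The 61.8% is from SN at 4 weeks, where the WT mean includes the library described next. In the substantia nigra library labelled WT 92 at 4 weeks, Akap11 was at 46.7 CPM, between the KO libraries (13.5 to 15.9 CPM) and the other 5 WT libraries (195 to 243 CPM), which goes against its label. Marker levels of striatal projection neurons set all 30 striatal libraries above the rest, and those of dopamine neurons all 32 of the substantia nigra. The margin for dopamine neurons was small: the lowest SN library was at 2.76 and the highest of another region at 2.60 (mean log2(CPM + 1)). In WT SN this list spanned 2.76 to 7.73 at 4 weeks and 7.88 to 8.31 at 12 weeks. Thalamic markers were above all other regions in 29 of 31 thalamic libraries. Their highest value outside thalamus, 8.32, was in a WT SN library at 4 weeks. A set of 16 libraries, all at 4 weeks (7 WT, 5 HET, 4 KO), had at most 5.55% whole numbers among its values above 0, against at least 17.3% in the others. It is called the library subset below. In it Prkar1a was higher by 0.44 ± 0.03 (log2, SE; adjusted p = 2.96e-19) and Prkar1b by 0.51 ± 0.07 than in the other libraries of the same groups (limma voom), where 18.2% of all genes were called higher. Prkar2a and Prkar2b differed by -0.06 ± 0.07 and 0.13 ± 0.08. The main Prkar1a results at 4 weeks, and some for the other members, are therefore also given without the library subset. Those of HET libraries, of WT by age and of pathway genes are given with it only. The cause of the subset was not tested.

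In WT brain, type I transcripts far outnumbered type II transcripts, and the balance of the 4 genes differed between regions. Levels are compared between genes as CPM per kb of the longest annotated transcript. By this scale Prkar1b was the most abundant member in every WT region but striatum, where Prkar1a was. Per kb of coding sequence, Prkar1b still led in cortex, but at 12 weeks Prkar1a led in HP, TH and SN. Its shares of the 4-gene sum there were 47.7%, 51.4% and 47.3%, against 45.1%, 42.3% and 45.1% for Prkar1b. Prkar2b was enriched in striatum, where Prkar2a was lowest. Type II genes made up 13.8% (12 weeks) and 14.5% (4 weeks) of the summed per-kb level of the 4 genes in WT striatum, and 3.88% to 5.82% in the other WT groups. No library outside striatum exceeded 7.32%, and no striatal library was under 9.99%. In bulk tissue, fewer cells of a type and less RNA per cell cannot be told apart.

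**Figure D1:**
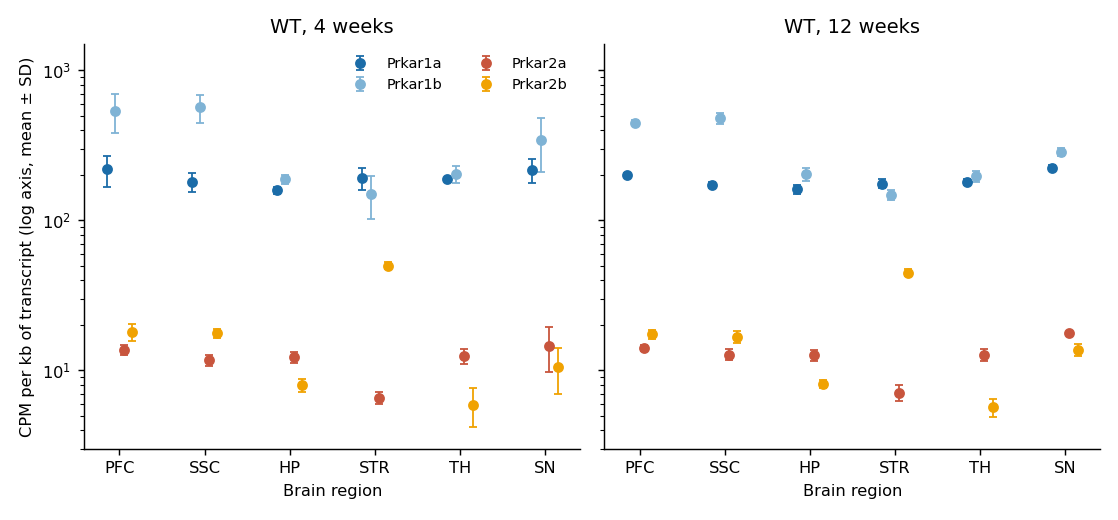
Level of each regulatory subunit gene in WT libraries by region at 4 and 12 weeks, as CPM per kb of transcript on a log axis (points are means, bars SD over 5 or 6 libraries). Prkar1a and Prkar1b lie above Prkar2a and Prkar2b in every region, and Prkar2b is highest in striatum.

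Prkar1a, the type I subunit gene expressed in most tissues, was the most even of the 4. At 12 weeks its WT level was lowest in hippocampus (565 ± 37.7 CPM, SD, n = 5) and highest in substantia nigra (789 ± 30.3 CPM, n = 5). The levels in SSC (604 CPM), STR (617 CPM) and TH (633 CPM) lay between them and did not differ from one another by the test. Across the 15 pairs of regions at 12 weeks, 11 were called for Prkar1a, where 62.6% of all tests over genes and pairs were called (limma voom, adjusted p under 0.05). At 4 weeks only 2 of 15 pairs were called, against 53.1% over all genes. Without the library subset, 10 of 15 were.

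Prkar1b, the type I gene known chiefly from neurons, was the member with the clearest cortical level. At 12 weeks its WT mean was 1268 ± 102 CPM in SSC and 1177 ± 45.1 CPM in PFC (SD, n = 5 each), a pair not called (adjusted p = 0.0784, limma voom). It was lower in SN (753 ± 45.6 CPM), HP (536 ± 51.7 CPM) and TH (521 ± 44.1 CPM), of which HP and TH were not called as different, and lowest in STR (390 ± 30.8 CPM). SSC exceeded STR 3.24-fold at 12 weeks, and 13 of 15 pairs were called at each age.

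Prkar2a, the type II gene expressed in most tissues, had its lowest WT level in striatum at both ages. At 12 weeks it was 35.3 ± 4.49 CPM in STR and between 62.9 and 88.4 CPM in the other regions (n = 5 each). All 5 regions exceeded striatum at both ages (limma voom). At 12 weeks PFC exceeded it 1.98-fold and HP 1.78-fold, and striatum was at 0.57 times the level in TH and 0.41 times that in SN. SSC, HP and TH did not differ from one another by the test.

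Prkar2b, the type II gene best known from neurons and fat, was highest in striatum, where Prkar2a was lowest. Its WT level at 12 weeks was 151 ± 7.71 CPM in STR, 59.0 ± 4.05 CPM in PFC, 56.6 ± 5.39 CPM in SSC, 46.2 ± 4.39 CPM in SN, 27.3 ± 1.65 CPM in HP and 19.1 ± 2.57 CPM in TH (SD, n = 5 each). Striatum exceeded thalamus 8.21-fold at 12 weeks and 8.72-fold at 4 weeks, the largest difference of any member between regions. At both ages 14 of the 15 pairs were called, the exception being PFC against SSC. Outside striatum the 2 type II genes did not run in reverse order: at 12 weeks both were higher in PFC than in HP (Prkar2a 1.11-fold, Prkar2b 2.14-fold), and in TH they were at 0.71 and 0.41 times their SN level. Across the 36 group means of log2(CPM + 1), Prkar2b and Prkar2a had r = -0.56 (rho = -0.26), a description in which the striatal groups stand apart.

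Loss of Akap11 went with lower Prkar1a RNA in most regions. Of the 4 members, it was the one whose KO value lay below WT in all 12 comparisons of region and age, with log2 fold changes from -0.37 to -0.02 and a median of -0.22. The smallest of these, in striatum at 4 weeks, changed sign in 5 of 15 fits that each left out 1 library and was 0.25 ± 0.16 without the libraries that stand apart by marker lists. In a fit over all regions, its mean KO effect was -0.17 ± 0.02 (log2, SE) at 12 weeks (adjusted p = 3.14e-06, limma voom), a level 11.2% lower. At 4 weeks the mean effect was -0.22 ± 0.05 (adjusted p = 0.0244, limma voom), a level 14.2% lower. Of all genes, 0.0784% were called lower in KO at 12 weeks and 0.335% at 4 weeks, and the median gene changed by less than 0.01 at either age. Within a genotype and age, sample numbers recur across regions, so the regions may not be independent repeats. Deviations from group means had a median r of 0.12 between same-numbered libraries of different regions. Between libraries with other numbers it was -0.03.

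**Figure D2:**
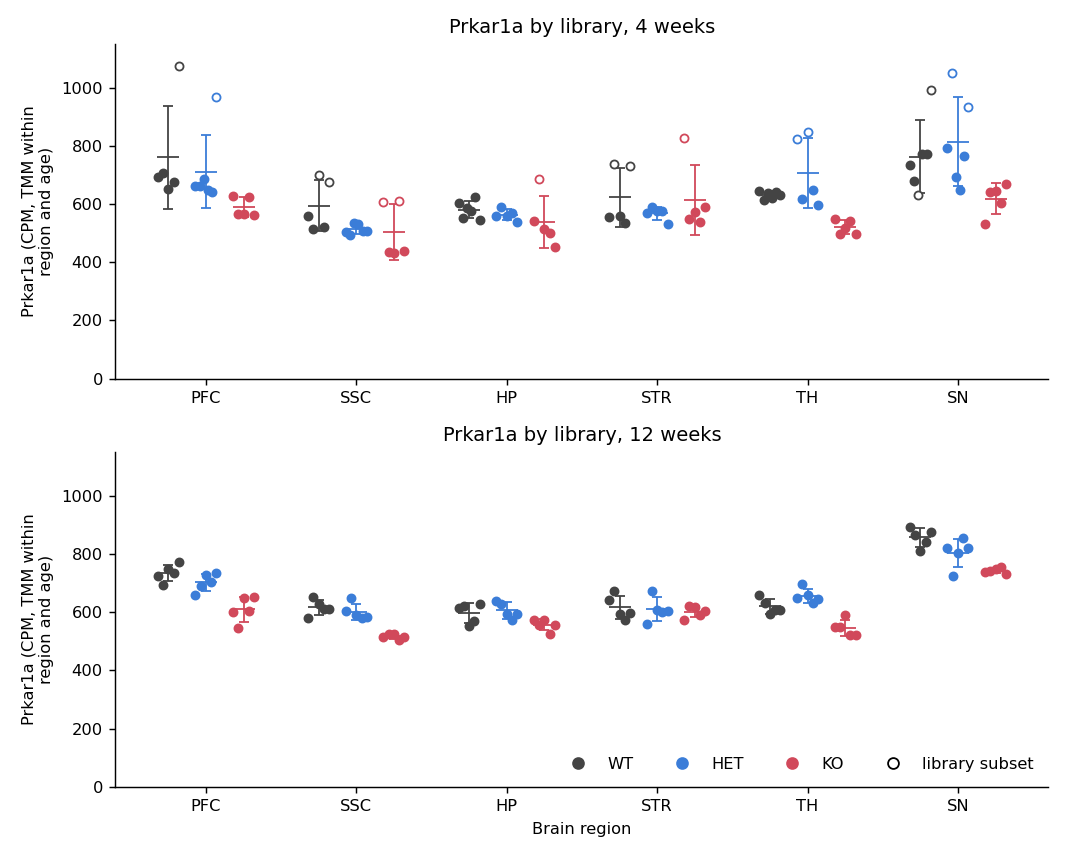
Prkar1a in every library by region and genotype at 4 weeks (top) and 12 weeks (bottom), in CPM scaled within region and age. Points are libraries, bars the mean ± SD of 5 or 6 libraries, and open points the 16 libraries of the library subset. At 12 weeks every KO point lies below every WT point in PFC, SSC, TH and SN.

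At 12 weeks the separation was plainest in cortex. In SSC the 5 WT libraries had 581, 609, 612, 627 and 652 CPM of Prkar1a, and the 5 KO libraries 503, 516, 516, 524 and 525 CPM. No KO library reached the lowest WT library, and the 5 HET libraries (581 to 649 CPM) lay in the WT range. Prkar1a fell by 0.25 ± 0.04 on the log2 scale there, the only one of the 48 KO tests of members that was called (adjusted p = 0.0398, edgeR). Over all genes, 0.644% of the 12 KO comparisons' tests were called, and 0.0252% of genes were called lower in this one. The call was lost in 12 of 15 fits that each left out 1 library (adjusted p 0.0158 to 0.176), and remained only without HET 2, HET 5 or WT 1. The size of the difference stayed between -0.28 and -0.23.

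In PFC at 12 weeks, WT libraries had 694, 723, 734, 749 and 771 CPM of Prkar1a and KO libraries 546, 600, 603, 650 and 651 CPM. The groups did not overlap, and the difference was -0.27 ± 0.05 (adjusted p = 0.274, edgeR). With sample number as a block it was called, as given in the closing section. In SN the WT libraries had 811, 840, 866, 876 and 891 CPM and the KO libraries 732, 737, 743, 749 and 754 CPM. Again every KO library was below every WT library, with a difference of -0.21 ± 0.05 (adjusted p = 0.416, edgeR). In TH the 5 WT libraries spanned 594 to 658 CPM and the 5 KO libraries 520 to 590 CPM, a difference of -0.18 ± 0.05 (adjusted p = 0.489, edgeR). Such complete separation downward at 12 weeks held in 4 of 6 regions for Prkar1a, and for 0.953% of all gene tests at that age. The regions share sample numbers, so they may not be independent repeats. DESeq2, which made more false calls than edgeR in simulated data, called Prkar1a at 12 weeks in PFC (adjusted p = 0.00779), SSC (3.63e-06) and SN (0.0211).

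HP and STR showed smaller differences at 12 weeks. In HP the WT libraries spanned 553 to 628 CPM of Prkar1a and the KO libraries 526 to 573 CPM, which overlapped (-0.10 ± 0.05). In STR the WT libraries spanned 575 to 672 CPM and the KO libraries 574 to 621 CPM (-0.04 ± 0.06), with the KO values inside or at the edge of the WT range. Neither was called by edgeR.

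Marker lists of 11 cell types were compared at 12 weeks in the regions where Prkar1a separated. The KO minus WT difference in the mean log2(CPM + 1) of a list ran from -0.26 to 0.08 in PFC, -0.20 to 0.21 in SSC and -0.43 to 0.15 in SN. The groups did not overlap for the hippocampal (-0.12) and inhibitory neuron lists (0.08) in SSC, the microglial list (-0.36) in SN and the thalamic list (0.19) in TH. In TH the inhibitory neuron list differed by -2.50 between overlapping groups (KO 1.86 to 4.91, WT 2.23 to 7.92). The part of these shifts in the Prkar1a difference was not tested.

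At 4 weeks the library subset widened the spread of Prkar1a. In PFC the WT libraries had 651, 674, 694, 707 and 1076 CPM, of which the last belongs to the subset, and the KO libraries 563, 564, 567, 624 and 629 CPM. The groups did not overlap, and the difference was -0.37 ± 0.14 (adjusted p = 0.263, edgeR), or -0.21 without that library, WT 914. In TH, where no WT or KO library belongs to the subset, the WT libraries spanned 615 to 645 CPM and the KO libraries 497 to 548 CPM (-0.28 ± 0.09, adjusted p = 0.249, edgeR). Without the WT libraries that stand apart by marker lists, the TH value was -0.26 ± 0.11 (adjusted p = 0.688, edgeR). The inhibitory neuron list in TH differed by -3.46 (KO minus WT) between overlapping groups, and its part in the Prkar1a difference was not tested. Every KO library was below every WT library in these 2 regions, as for 0.634% of gene tests at 4 weeks.

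In SSC at 4 weeks the WT libraries had 515, 520, 559, 676 and 701 CPM of Prkar1a and the KO libraries 432, 434, 438, 607 and 610 CPM. The 2 highest libraries of each group belong to the subset, and the groups overlapped (-0.24 ± 0.12). Without the library subset the difference was -0.29 ± 0.05 with 3 libraries a group (adjusted p = 0.0385, edgeR). That choice was made after the values were seen.

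Left without the subset, Prkar1a was lower in every KO than in every WT library in 5 of 6 regions at 4 weeks, with differences of -0.21 in PFC, -0.29 in SSC, -0.19 in HP, -0.27 in TH and -0.25 in SN. Separation is easier with fewer libraries: 2.67% of gene tests showed it then. These regions also share sample numbers. In striatum the groups overlapped, at 0.03 ± 0.06. The mean KO effect over regions was -0.20 ± 0.02 without the subset (adjusted p = 9.46e-08, limma voom). Without the libraries that stand apart by marker lists it was -0.19 ± 0.06 and no longer called (adjusted p = 0.196). It was also not called without KO 161 (adjusted p = 0.153), KO 932 (0.108) or WT 914 (0.131).

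Prkar1b, the other type I gene, was lower in KO in 11 of 12 comparisons but was called in none. Its mean KO effect was -0.08 ± 0.03 at 12 weeks (adjusted p = 0.640, limma voom) and -0.11 ± 0.08 at 4 weeks (adjusted p = 0.646). In PFC at 12 weeks the WT libraries had 1149, 1216, 1243, 1254 and 1262 CPM and the KO libraries 1058, 1112, 1116, 1119 and 1214 CPM. The groups overlapped through 1 KO library. The widest values were at 4 weeks, where Prkar1b was at -0.51 ± 0.22 in SN and -0.43 ± 0.17 in PFC. The PFC value was -0.24 without WT 914, which had 2123 CPM and belongs to the subset. In SN the library labelled WT 92 had 1676 CPM against 636 to 933 CPM in the other WT libraries. Without it the SN value was -0.24. Without the subset, to which it belongs, the SN value was -0.16 ± 0.13 and the 4-week mean effect was -0.00 ± 0.06.

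**Figure D3:**
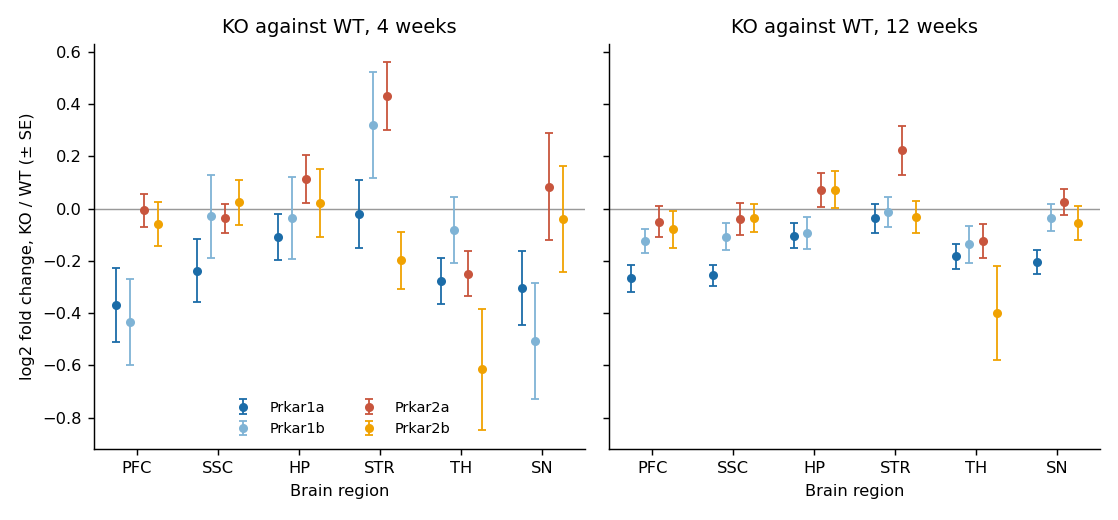
Log2 fold change of KO against WT for each regulatory subunit gene by region at 4 weeks (left) and 12 weeks (right), from edgeR. Points are estimates, bars ± SE, and the line marks no difference. Prkar1a lies below the line in all 12 comparisons, from -0.37 to -0.02.

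Prkar2a differed most in the striatum, where its level is lowest. At 12 weeks the WT libraries had 31.7, 32.6, 34.1, 34.5 and 43.5 CPM and the KO libraries 36.1, 39.3, 42.1, 43.3 and 45.0 CPM. All KO libraries but none of the WT libraries other than WT 3 were above 35 CPM, and the groups overlapped through that library. The difference was 0.22 ± 0.09 (adjusted p = 0.235, edgeR), and 0.31 without WT 3 (adjusted p = 0.0348). At 4 weeks the WT libraries had 26.3, 28.8, 30.004, 32.1 and 33.9 CPM and the KO libraries 30.2, 32.5, 39.2, 48.3 and 53.5 CPM (0.43 ± 0.13, adjusted p = 0.0827, edgeR). It was called without KO 12 (0.52, adjusted p = 0.0179), without KO 932 (0.50, adjusted p = 0.0386) and by DESeq2 (0.43, adjusted p = 0.0337).

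The 3 highest KO libraries at 4 weeks were also those with the highest signal of excitatory neuron markers. The mean log2(CPM + 1) of 7 such genes ranged from 5.20 to 6.26 in these KO libraries (51, 161 and 163). WT 92 had 5.10, and the remaining 11 striatal libraries had 0.44 to 2.93. Without these 4 libraries the Prkar2a difference at 4 weeks was 0.10 ± 0.08 (adjusted p = 0.587, edgeR), with 2 KO libraries left. At 12 weeks the same list was at 0.32 to 0.90 in KO and 0.39 to 0.67 in WT striatum. Prkar2a in the other regions ran from -0.25 (TH, 4 weeks) to 0.11 (HP, 4 weeks), with no call.

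**Figure D4:**
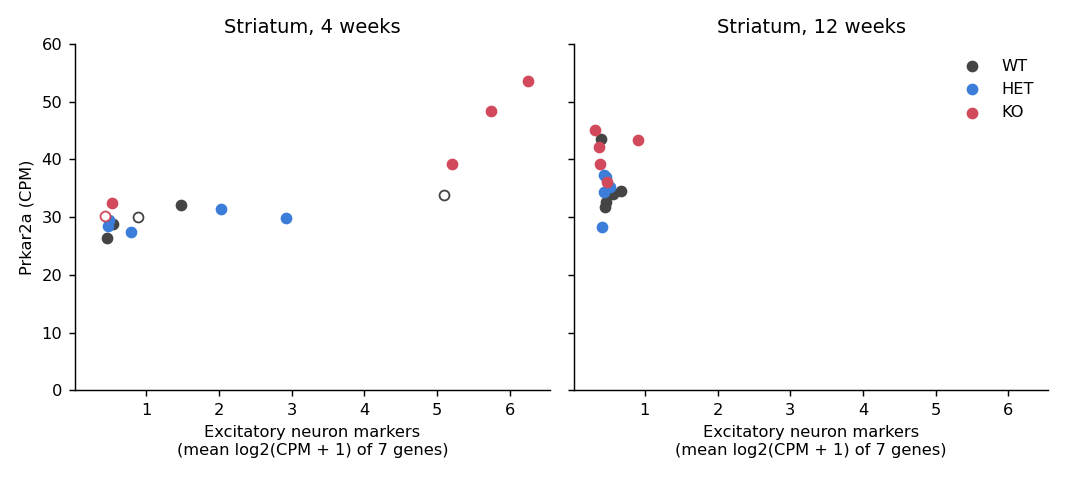
Prkar2a (CPM, vertical axis) in each striatal library against its mean log2(CPM + 1) of 7 excitatory neuron marker genes (horizontal axis) at 4 weeks (left) and 12 weeks (right). Open points belong to the library subset. At 4 weeks the 3 KO libraries at 39.2 to 53.5 CPM have marker values of 5.20 to 6.26, and at 12 weeks all libraries lie under 1.

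Prkar2b had its largest KO values in thalamus, where it is lowest, and was called in no region. At 12 weeks the WT libraries had 15.9, 16.8, 19.1, 19.9 and 21.9 CPM and the KO libraries 10.8, 11.8, 15.3, 16.05 and 16.98 CPM, which overlapped. The difference was -0.40 ± 0.18 (adjusted p = 0.645, edgeR), and at 4 weeks -0.62 ± 0.23 (adjusted p = 0.291). Without 3 WT libraries that stand apart by marker lists (913, 914 and 23), the 4-week value was -0.40 ± 0.25 (adjusted p = 0.775, edgeR). Across thalamic libraries, Prkar2b and the inhibitory neuron list had r = 0.43 (rho = 0.33, n = 15) at 12 weeks and r = 0.68 (rho = 0.52, n = 16) at 4 weeks, as a description over libraries that share a dissection. The part of that list in the difference was not tested. In striatum, the region of its highest level, Prkar2b was at -0.03 ± 0.06 at 12 weeks and -0.20 ± 0.11 at 4 weeks. The 4-week value was called without KO 12 (-0.32, adjusted p = 0.0289, edgeR), a fit that keeps the 3 KO libraries with excitatory marker signal. Without those 3 and WT 92 it turned to 0.07 ± 0.09 (adjusted p = 0.726, edgeR).

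The KO effect in striatum was then tested against the mean of the other 5 regions. At 12 weeks Prkar1a differed by 0.16 ± 0.05 and Prkar2a by 0.25 ± 0.08, both with an adjusted p of 0.0402 (limma voom), where 3.91% of all genes were called. For Prkar1a the values were -0.04 in striatum beside -0.27 to -0.10 elsewhere, and for Prkar2a 0.22 beside -0.12 to 0.07. Both calls were lost with no replicate block (adjusted p = 0.0707 and 0.0621, edgeR) and with no low-count filter (0.0581 and 0.0634), that of Prkar1a also with RLE size factors (0.0536), and were lost in 7 and 6 of the 15 fits that left out 1 sample. At 4 weeks no member was called, against 2.07% of genes (adjusted p = 0.446 for Prkar1a, 0.125 for Prkar1b and 0.156 for Prkar2a, limma voom). With no replicate block, Prkar2a was called (0.46, adjusted p = 0.0468, edgeR). Without the library subset, Prkar1a (0.29), Prkar1b (0.74) and Prkar2a (0.60) were each called, but the 3 KO striatal libraries with excitatory marker signal remain in that fit. With the subset kept and the libraries that stand apart by markers left out, none was called: Prkar1a was at 0.55, Prkar1b at 0.30 and Prkar2a at 0.17, with adjusted p of 0.0825, 0.470 and 0.515 (limma voom).

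HET libraries gave no call for any member. Of 48 tests, 0 were called by edgeR, 0 had an unadjusted p under 0.05 and DESeq2 called 0, beside 0.00521% of all HET tests called. All 10 of those calls were of Akap11 itself, so no gene but the targeted one was called. For Prkar1a the HET differences at 12 weeks ran from -0.09 to 0.08, and the mean HET effect was -0.02 ± 0.02 at 12 weeks and -0.03 ± 0.05 at 4 weeks (limma voom, adjusted p = 1.00 for both). These comparisons use the same WT libraries as the KO comparisons.

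Age was compared within regions. In WT, 0 of 24 member tests between 12 and 4 weeks were called (edgeR), beside 20.6% of all gene tests. At an unadjusted p under 0.05 there were 3, and DESeq2 called 0. The KO effect did not pass the test of a difference between ages for any member in any region: 0 of 24 tests were called, with 0 at an unadjusted p under 0.05 and 0 by DESeq2, beside 0% of all genes. Without the library subset, 0 of these 24 were called and 2 had an unadjusted p under 0.05 (smallest adjusted p = 0.0631, edgeR). Any difference in preparation between the ages cannot be told apart from age.

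Other genes of the pathway were taken from a list of 57, of which 53 to 56 were tested in a comparison. The list was written with earlier results of these data known, so its call counts are descriptions. Catalytic subunit genes Prkaca and Prkacb, partners of the regulatory subunits, were called in 0 of 24 KO tests, with log2 fold changes from -0.33 to 0.14. Pja2, a ubiquitin ligase for regulatory subunits, ran from -0.10 to 0.11 with no call. In KO striatum 5 of 54 were called at 4 weeks (3 higher, 2 lower) and 5 of 55 at 12 weeks (2 higher, 3 lower), beside 3.35% and 4.42% of all genes there (edgeR). In the other regions no pathway gene was called, where 1 to 9 genes in all were called per KO comparison, and no HET call was made.

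Adcy1, an adenylyl cyclase that makes cAMP, rose by 0.80 ± 0.14 at 4 weeks and 0.63 ± 0.10 at 12 weeks (adjusted p = 0.00541 and 0.00164, edgeR). The anchoring protein gene Akap3 rose at both ages (1.47 and 1.74) from a level of under 1 CPM. At 4 weeks Sphkap, whose product anchors type I subunits, rose by 1.19, and Akap5 (-0.55) and the PKA inhibitor gene Pkig (-0.29) fell. At 12 weeks Gsk3b (-0.34), a GSK3 gene, and the phosphodiesterase genes Pde2a (-0.29) and Pde10a (-0.43) fell. Pde10a is also a striatal projection neuron marker. Without the libraries with excitatory marker signal, Adcy1 was at 0.82 (adjusted p = 0.0110, edgeR), and Sphkap at 0.44 (0.0299) at 4 weeks. Akap3 (1.55, adjusted p = 0.113), Akap5 (-0.30, 0.238) and Pkig (-0.29, 0.201) were then no longer called.

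By pattern over the 36 group means, the genes most like Prkar1a were Syngr3 (r = 0.81), Timp2 (0.78) and Gprasp1 (0.76), among 10106 candidates. Those most like Prkar1b were C77080, Shisa5 and Olfm2 (r = 0.96 each). Those most like Prkar2a were Ralyl (0.96), Pnma3 (0.95) and Dync1i1 (0.94), and those most like Prkar2b were Nanos1 (0.97), Gmcl1 (0.96) and Cpne5 (0.95). The members themselves were less alike: Prkar1a and Prkar1b had r = 0.14 over group means. Within groups, the deviations of all libraries gave r = 0.42 for that pair and 0.03 over the 170 libraries outside the library subset. For Prkar1a and Prkar2b the same values were 0.44 and 0.37. These libraries share tissue makeup and scaling, so the values are descriptions.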

How the data were processed

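The submitters deposited expected counts, estimated per gene and not whole, for which their processing notes name Salmon and mm10. Version, annotation and use of strand: not given in the sources used here. Per the labels' protocols, frozen brain was dissected in a cryostat and 200 ng of total RNA entered a TruSeq Stranded mRNA kit. Expected counts were rounded. Each region and age was fitted with edgeR 4.0.16 in R 4.3.3 (TMM, filterByExpr, quasi-likelihood test, 3 genotypes, no covariate), with Benjamini-Hochberg adjustment over all genes and calls at 0.05. Fits over all regions used limma 3.58.1 voom with a correlation between libraries of 1 age, genotype and sample number (0.11 at 12 weeks, 0.04 at 4 weeks). For edgeR, SE is the size of the log2 fold change over the root of F. For limma it is the contrast's standard error from the moderated variance. DESeq2 1.42.0 and sva 3.50.0 served as alternatives, with leave-one-out fits. On simulated counts, edgeR and DESeq2 were tried for KO against WT in SSC at 12 weeks. There limma voom was tried for the mean KO effect over regions at 12 weeks. The other comparisons, and those at 4 weeks, were not simulated. The bound on the share of false calls there was wider than the 0.05 used for calls, and edgeR and limma met it. The edgeR share was still above 0.05. DESeq2 went just over the bound, which was then kept for the main tests only. Genes named are the members, Akap11, pathway genes called in KO, and the 3 genes most like each member with a mean of at least 10 CPM. In 390 replicate pairs, chi-square over degrees of freedom was 8.36 or more, so no pair looked like 1 library deposited again. Members and lists were chosen with earlier results of these data known.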

Additional observations from a re-analysis of the deposited data

Results flagged for a closer look

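Of 144 groups of member, region, age and genotype, 18 held a library that lay far from the others, where chance gives about 1 in 20, and 10 of these 18 values belong to the library subset. For Prkar1a these were WT 914 (1076 CPM) and HET 941 (967 CPM) in PFC and KO 12 (828 CPM) in STR, all at 4 weeks and in the subset. For Prkar1b they were WT 914 (2123 CPM) and HET 941 (1701 CPM) in PFC, WT 92 in SN (1676 CPM), and KO 51 (627 CPM) and HET 941 (990 CPM) in HP at 4 weeks. HET 941 in HP is outside the subset and was also high for Prkar2b (46.7 CPM against 26.7 to 31.2 CPM in the other HET libraries).

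For Prkar2a at 4 weeks they were WT 914 in PFC (76.0 CPM), HET 53 in HP (64.2 CPM), and HET 93 (47.2 CPM) and WT 23 (61.2 CPM) in SSC. At 12 weeks they were HET 3 in PFC (77.8 CPM) and WT 3 in STR (43.5 CPM), whose part in the striatal Prkar2a value is given above. For Prkar2b they were also HET 941 in PFC (74.7 CPM), WT 142 in SSC (63.2 CPM) and KO 163 in TH (18.1 CPM) at 4 weeks.

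A test of the difference between regions set apart the striatal KO effect at 12 weeks for Prkar1a (0.16) and Prkar2a (0.25).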

How the results depend on the processing

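Of the 48 KO tests of members, 1 was called, against 4 with DESeq2, 2 with the replicate block, 2 with the library subset as covariate, 3 without the subset, and 0 with 1 surrogate variable, with 2 genotypes in the fit or with no low-count filter. Leaving out 1 library gave 0 to 3. Among the 24 member tests at 4 weeks, 2 were called without the subset (smallest adjusted p = 0.0298, edgeR). Of the 8 mean KO effects, 2 were called, and 1 without libraries that stand apart (1 to 2 on leaving out a sample). Of the 8 tests of striatum against other regions, 2 were called, against 1 with RLE size factors, 1 with no replicate block (Prkar2a at 4 weeks, in place of the 2 at 12 weeks), 0 with no low-count filter, 4 with the subset as covariate and 5 without it (0 to 4 on leaving out a sample). Between ages in WT, leaving out a library gave 0 to 1 calls.

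Sample numbers are shared between genotypes at 12 weeks only. Of 60 same-numbered pairs, 42 correlated over 0.1 (range -0.35 to 0.82). In 27 of 60 the own number was the best match among the 5 numbers of the other genotype. As not every pair passed 0.1 and the labels do not say what a number marks, the block was kept as an alternative. The main fits leave it out, so anything that same-numbered libraries share stays in their spread. Under the replicate block Prkar1a was called in PFC (-0.27, adjusted p = 0.0165, edgeR) and SSC (-0.25, adjusted p = 0.0350).

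Small values that missed the threshold changed sign. At 4 weeks with the subset as covariate these were Prkar2a in PFC (0.0332), Prkar2b in PFC (0.0096) and HP (-0.0047) and Prkar1a in STR (0.0716). Without the subset they were Prkar2a in PFC (0.0385) and SN (-0.0619), Prkar2b in PFC (0.0137) and SSC (-0.0201) and Prkar1a in STR (0.0306). Without libraries that stand apart they were Prkar1a (0.255) and Prkar2b (0.0726) in STR, Prkar1b in TH (0.0064), Prkar2a in SN (-0.0751), the mean effect of Prkar2a (-0.0095) and Prkar2b in striatum against other regions (0.223). With 1 surrogate variable it was Prkar1b in SSC (0.0219).

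On leaving out a library at 4 weeks, Prkar1a in STR ran from -0.153 to 0.0486 and Prkar1b in SSC from -0.136 to 0.0681. Prkar2a ran from -0.0357 to 0.0369 in PFC, -0.0600 to 0.0108 in SSC and -0.0798 to 0.161 in SN. Prkar2b ran from -0.112 to 0.0120 in PFC, -0.0366 to 0.0708 in SSC, -0.0172 to 0.0849 in HP and -0.173 to 0.0717 in SN. At 12 weeks Prkar1b in STR ran from -0.0458 to 0.0364, Prkar2a in SN from -0.0112 to 0.0459 and Prkar2b in SN from -0.0945 to 0.0076. The cause of these changes was not tested.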
